A study of Mus musculus with 29 samples.

Results

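The comparison described here is that of 3T9 MycER mouse fibroblasts after 4 h of 4-hydroxytamoxifen with the same cells given vehicle. The groups compared are 8 of the 29 libraries of the series, OHT_4h (n = 4) and OHT_0h (n = 4), chosen by their labels. Values are FPKM, fragments per kilobase of gene per M reads, which set genes of different length on 1 scale. Of 21675 genes listed, 12669 had at least 1 FPKM in at least 4 of the 8 libraries and were tested, and 9006 were below that filter.

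Myc is a basic helix-loop-helix leucine zipper transcription factor that pairs with Max and binds the E-box CACGTG and related sequences. It is known for driving genes of ribosome production, metabolism and the cell cycle in growing cells, and for lowering other genes, in part through the factor Miz1. MycER joins Myc to the hormone-binding part of the oestrogen receptor, which keeps the protein inactive until 4-hydroxytamoxifen binds, so that Myc can be switched on within hours in cells that already make it.

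All 8 samples were 3T9 fibroblasts derived from embryos (E13.5), of mixed strain, with the genotype c-myc flox/flox, into which MycER had been brought by infection in culture. The cells grew in DMEM with serum. OHT_4h received 400 nM 4-hydroxytamoxifen for 4 h. OHT_0h received ethanol, and for how long is not given in the sources used here. Neither the promoter that drives MycER nor the clonality of the line is given, and the labels name no Cre recombinase. No group in the comparison lacked MycER, so activation of MycER and other effects of the drug cannot be told apart. The labels do not say whether replicates were separate cultures, and p-values then measure only the spread between these libraries. Other libraries of the same line served for single questions: OHT_8h and OHT_16h (n = 4 each), and 1 library each of nascent RNA at 4 h and 0 h, labelled for 10 min with 300 µM 4-thiouridine (4sU_4h and 4sU_0h).

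The files hold no counts. The spacing of low values gave an estimated denominator of 17.02 to 17.18 M reads in the OHT_4h libraries and 17.02 to 17.2 M reads in the OHT_0h libraries. By this estimate, 1 FPKM of a gene of 2000 bases stands for about 34 reads. It used exon lengths of GRCm38, not of the build of the deposited values. In these libraries 46.8% to 55.9% of the low values used lay within 0.1 of a whole read. Of the fibroblast markers, 12 of 13 were tested and none was called. All 12 log2 fold changes were below 0, with a median of -0.16, and in 3 genes the OHT_4h values lay wholly below those of OHT_0h, which held for 8.29% of all genes tested. The summed level of the markers was 581 to 668 FPKM in OHT_4h and 665 to 722 FPKM in OHT_0h. Their part in other falls was not tested. Vim, vimentin, was at 114 ± 11.7 FPKM in OHT_4h and 115 ± 7.07 FPKM in OHT_0h, and Thy1 was the marker below the filter. B cell and endothelial markers were all below it, with summed levels of at most 2.96 FPKM per library.

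Some libraries stood apart. In OHT_0h replicate 4, 24 genes had at least 5 FPKM that were under 1 FPKM in each of the other 15 total RNA libraries, against 1 such gene in OHT_0h replicate 1 and 0 in each OHT_4h library. Among them were Lyz2 (34.5 FPKM), Ccl4 (31.6 FPKM), Rsad2 (22.3 FPKM), Cxcl10 (18.3 FPKM) and Tnf (15.8 FPKM), which are known from activated macrophages and the interferon response. The summed level of the 8 macrophage and monocyte markers was 22.9 to 42.9 FPKM in OHT_4h and 25 to 76.4 FPKM in OHT_0h. Lyz2 was at 0.05, 0.26, 0.2 and 0.14 FPKM in OHT_4h and 0.09, 0.1, 0.09 and 34.5 FPKM in OHT_0h. The 5 genes named here were below the filter and were not tested. OHT_4h replicate 4 was the weakest responder: over the genes that fell at least 2-fold, its median log2 difference from the OHT_0h mean was -0.83, against -1.54, -1.41 and -1.17 in OHT_4h replicates 1 to 3. Values without libraries numbered 4 are given where they bear on a result.

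At 4 h, 239 genes were called higher and 371 lower, which is 1.89% and 2.93% of the genes tested, or 4.81% in all (limma, Benjamini-Hochberg adjusted p under 0.05). A change of at least 2-fold was reached by 79 rises (0.624%) and 139 falls (1.1%). The values of the 4 OHT_4h and 4 OHT_0h libraries did not overlap in 546 genes that were higher (4.31%) and 1050 that were lower (8.29%). The median log2 fold change of all genes tested was -0.04. By library, the median difference from the OHT_0h mean was -0.15, -0.07, 0.13 and -0.1 in OHT_4h replicates 1 to 4. The main fit did not rescale libraries. With median ratio scaling, 647 genes rose and 807 fell. The part of these shifts in the excess of falls was not tested. The main calls use the spread of 16 libraries, and a fit of the 8 libraries alone gave 352 rises and 794 falls.

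Single libraries moved these counts. Without one library at a time the rises numbered 137 to 271, and they were 137 without OHT_4h replicate 2, 137 without OHT_4h replicate 3, 150 without OHT_0h replicate 1 and 158 without OHT_0h replicate 3. The falls numbered 115 without OHT_4h replicate 1, 119 without OHT_4h replicate 2, and 215, 182, 217 and 211 without OHT_0h replicates 1, 2, 3 and 4. Falls of at least 2-fold numbered 73 without OHT_4h replicate 1 and 82 without OHT_4h replicate 2. Without both libraries numbered 4, 191 genes rose and 334 fell. Without all libraries numbered 4 and OHT_16h replicate 2, a choice made after the data were seen, the counts were 722 and 1393.

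Myc itself fell. It was at 7.92, 9.51, 11.4 and 14.5 FPKM in OHT_4h, against 24.4, 29.7, 20.3 and 23 FPKM in OHT_0h. The groups did not overlap, and the log2 fold change was -1.15 ± 0.19 (SE, limma adjusted p = 0.000821). The files do not say whether reads of the MycER transgene enter the value of Myc. Esr1, the oestrogen receptor gene, had 5.46 ± 0.358 FPKM in OHT_4h and 7.48 ± 1.48 FPKM in OHT_0h and did not pass the test (limma adjusted p = 0.325). Its log2 fold change was -0.41, and its OHT_4h values lay wholly below those of OHT_0h, as in 8.29% of all genes tested. Of the 11 tested genes of the Myc and Max network, 1 rose besides the fall of Myc, against 1.89% and 2.93% of all genes. That gene was Mxi1, which pairs with Max and represses Myc targets, at 23, 19.4, 26.3 and 19.1 FPKM in OHT_4h and 12.7, 12.8, 14.5 and 11.3 FPKM in OHT_0h (limma adjusted p = 0.00532). The other 9 members were not called. A single call in each direction in a list of this size is no result about the list.

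The largest rise was that of Rgcc, a regulator of cell cycle kinases known from the complement response. Rgcc had 40.8, 40.2, 41.5 and 42.9 FPKM in OHT_4h, against 4.56, 4.37, 4.21 and 4.99 FPKM in OHT_0h. The lowest OHT_4h library was thus far above the highest OHT_0h library, and the log2 fold change was 3.06 ± 0.14 (SE, limma adjusted p = 1.47e-11). By difference in FPKM, Rgcc also led the rises, followed by Smpdl3b (53.1 ± 12.6 FPKM in OHT_4h and 25 ± 1.9 FPKM in OHT_0h), a lipid phosphodiesterase, and Ifi30 (41.7 ± 9.69 and 13.8 ± 1.47 FPKM), a lysosomal thiol reductase. Next were Rrp9 (107 ± 19.3 and 79.7 ± 3.57 FPKM), a protein of the U3 small nucleolar particle that processes ribosomal RNA, and Dgat2 (43.3 ± 11.9 and 18.3 ± 2.14 FPKM), an enzyme of triglyceride synthesis.

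Slc38a3, a glutamine transporter, followed Rgcc in fold change. It had 6.64, 4.82, 9.32 and 1.95 FPKM in OHT_4h, against 0.2, 0.24, 0.32 and 0.39 FPKM in OHT_0h, with a log2 fold change of 2.81. OHT_4h replicate 4 was the lowest of its group, yet above all OHT_0h libraries. P2ry2, a receptor for extracellular ATP and UTP, had 5.4, 7.76, 7.68 and 9.75 FPKM in OHT_4h, against 1.78, 1.89, 1.31 and 2.08 FPKM in OHT_0h. Adora2b, an adenosine receptor, was at 5.43, 6.03, 6.26 and 11.3 FPKM in OHT_4h and 1.59, 1.52, 2.05 and 2.19 FPKM in OHT_0h, with OHT_4h replicate 4 highest. The log2 fold changes were 1.83 for P2ry2 and 1.68 for Adora2b.

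The Wnt receptors Fzd9 and Fzd4 were both among the 15 largest rises. Fzd9 was at 15, 19.1, 21.6 and 19.6 FPKM in OHT_4h and 5.43, 4.48, 5.36 and 4.8 FPKM in OHT_0h, and Fzd4 at 13.8, 18.8, 19.2 and 16.8 FPKM in OHT_4h and 4.3, 5.61, 4.51 and 7.44 FPKM in OHT_0h. Their log2 fold changes were 1.80 and 1.59. Nrtn, which encodes neurturin, a ligand of the GDNF family, averaged 7.29 ± 2.77 FPKM in OHT_4h and 1.69 ± 0.864 FPKM in OHT_0h. Hapln4, a link protein of the hyaluronan matrix, averaged 5.36 ± 1.97 FPKM in OHT_4h and 1.34 ± 0.608 FPKM in OHT_0h.

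Cited1, a co-regulator of transcription that binds CBP and p300, had 16.8, 15.3, 25 and 4.94 FPKM in OHT_4h, against 3.06, 2.16, 2.44 and 1.92 FPKM in OHT_0h, and it spread widest in OHT_4h with replicate 4 lowest. Bhlhe41, a repressor of the circadian clock also called Dec2, had 6.91, 8.9, 9.33 and 8.91 FPKM in OHT_4h, against 2.48, 1.93, 2.5 and 2.68 FPKM in OHT_0h. Dusp2, a phosphatase that switches off MAP kinases, had 18.1, 19.5, 20.1 and 20.9 FPKM in OHT_4h, against 6.13, 5.93, 6.84 and 6.14 FPKM in OHT_0h. Their log2 fold changes were 1.64 and 1.58. Ankrd6, an ankyrin repeat protein known from Wnt signalling, averaged 12.8 ± 4.71 FPKM in OHT_4h and 1.75 ± 0.269 FPKM in OHT_0h. The rest of the 15 were Reep6, which acts at the endoplasmic reticulum, Myzap, a cell junction protein, and Arrdc2, an arrestin-type adaptor, with log2 fold changes of 1.98, 1.63 and 1.58. All 15 kept their call without any single library.

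Of the 15 largest rises, 12 had an entry in RefSeq's promoter table (GRCm38.p6), and the others were Slc38a3, Reep6 and Hapln4. The E-box CACGTG, searched on both strands, which read alike, stood in the 250 bases before every listed start of 3 of them. P2ry2, with 2 listed starts, held it in a window but not before every start. The 3 are shown to let a reader see the motif in its setting. Capitals mark CACGTG, and each stretch holds 40 bases on either side, 5′ to 3′ on the gene's strand.
Fzd9, chr5:135251090-135251175, minus strand: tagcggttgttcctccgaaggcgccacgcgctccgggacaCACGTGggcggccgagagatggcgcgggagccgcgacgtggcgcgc
Bhlhe41, chr6:145865528-145865613, minus strand: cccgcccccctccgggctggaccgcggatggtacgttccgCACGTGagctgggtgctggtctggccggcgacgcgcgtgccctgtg
Dusp2, chr2:127336010-127336095, plus strand: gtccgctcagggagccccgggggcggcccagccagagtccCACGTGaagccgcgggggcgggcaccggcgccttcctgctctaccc

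The motif began 88 bases before the start in Fzd9, 153 in Bhlhe41 and 109 in Dusp2. Of all 32851 promoter windows in the table, which reach from 250 bases before to 50 after the start, 2349 (7.15%) held CACGTG. A match is a description of the letters and not a measured site. The table had an entry for 77.4% of the rises and 75.2% of the falls, under the 80% needed to compare the groups, so no share per group is given.

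**Figure D1:**
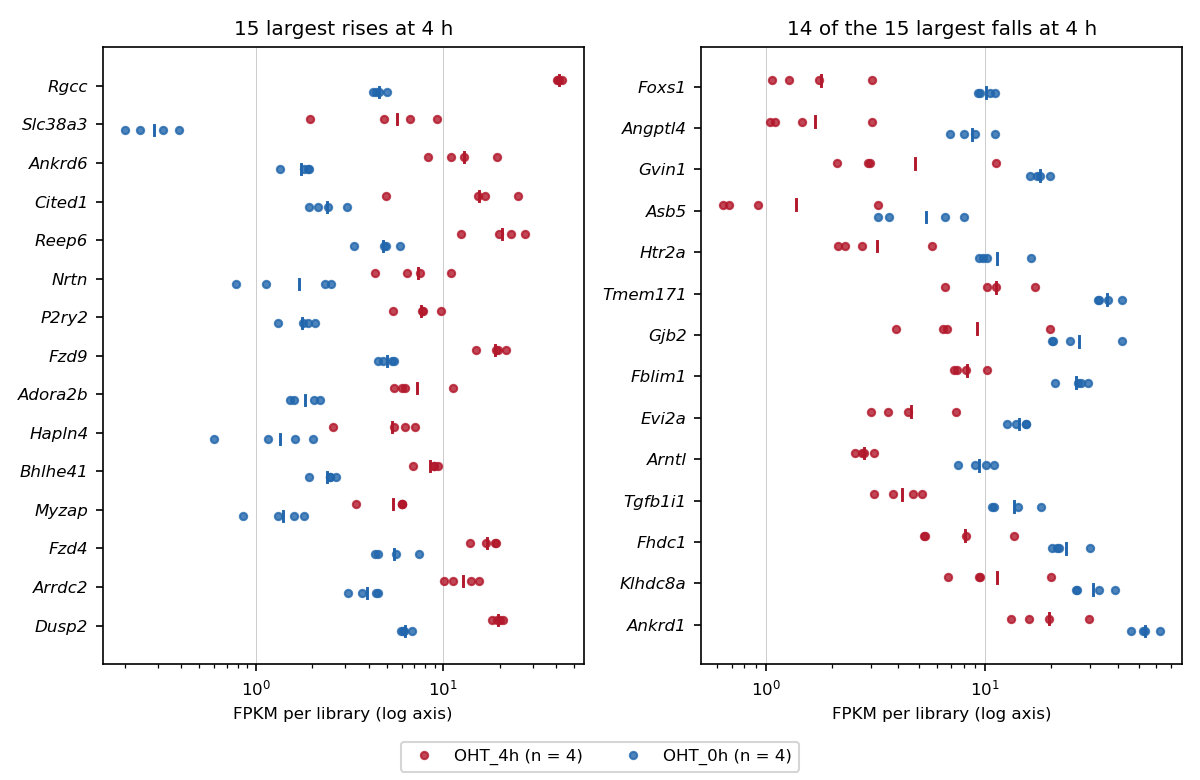
FPKM in each library (log axis) of the 15 largest rises (left) and 14 of the 15 largest falls (right), with OHT_4h in red above OHT_0h in blue (points, libraries, n = 4 each; ticks, means). The groups do not overlap in any of these 29 genes, since the naming rule asked for it, and the gap is widest for Rgcc, at 40.2 to 42.9 FPKM in OHT_4h and 4.21 to 4.99 FPKM in OHT_0h.

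The largest fall was that of Foxs1, a forkhead factor. Foxs1 had 1.07, 1.27, 1.75 and 3.04 FPKM in OHT_4h, against 11.1, 9.42, 10.5 and 9.26 FPKM in OHT_0h, with a log2 fold change of -2.28 ± 0.29 (SE, limma adjusted p = 7.4e-05). Angptl4, a secreted inhibitor of lipoprotein lipase, had 1.05, 1.1, 1.47 and 3.06 FPKM in OHT_4h, against 6.9, 11, 8.02 and 8.97 FPKM in OHT_0h, with a log2 fold change of -2.16. In both, OHT_4h replicate 4 was the highest of its group and still below every OHT_0h library. By difference in FPKM the falls were led by Ankrd1, Myl9, Plau, Epha2 and Csrp1. Plau, the urokinase protease, averaged 36.2 ± 5.32 FPKM in OHT_4h and 67.8 ± 5.66 FPKM in OHT_0h, and Epha2, an ephrin receptor, had 29.2, 36.8, 40.8 and 53.2 FPKM in OHT_4h and 68.2, 67.3, 73.5 and 74.2 FPKM in OHT_0h.

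Gjb2, a connexin, which builds channels between cells, had 3.91, 6.43, 6.66 and 19.7 FPKM in OHT_4h, against 24.2, 20.1, 20.4 and 41.8 FPKM in OHT_0h, and replicate 4 was the highest library in both groups. Ankrd1, a target of YAP and a muscle stress gene, had 13.1, 15.8, 19.4 and 29.7 FPKM in OHT_4h, against 53.1, 62.5, 52.4 and 46.1 FPKM in OHT_0h, with a log2 fold change of -1.49 ± 0.21 (SE, limma adjusted p = 0.000271).

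The LIM proteins Fblim1 and Tgfb1i1 act at focal adhesions. Fblim1 averaged 8.22 ± 1.36 FPKM in OHT_4h and 26 ± 3.65 FPKM in OHT_0h, and Tgfb1i1 had 3.79, 4.66, 5.16 and 3.1 FPKM in OHT_4h, against 14.1, 18, 11 and 10.8 FPKM in OHT_0h. The call of Fblim1 was lost without OHT_4h replicates 1, 2 or 4 or OHT_0h replicates 1, 2 or 3 (limma adjusted p up to 0.0818). That of Tgfb1i1 was lost without OHT_4h replicates 1, 2 or 4 or OHT_0h replicates 1 or 2 (up to 0.083). In these fits their log2 fold changes stayed within -1.7 to -1.54 and -1.67 to -1.42, and both calls held with the 8 libraries alone. Outside the comparison, Fblim1 was at 15.4, 13.8, 15.7 and 4.09 FPKM in OHT_8h, and Tgfb1i1 at 8.4, 7.31, 8.43 and 1.88 FPKM. The part of that spread in the lost calls was not tested. Fhdc1, a formin-like protein of actin and microtubules, averaged 8.09 ± 3.9 FPKM in OHT_4h and 23.2 ± 4.45 FPKM in OHT_0h and lost its call without OHT_4h replicate 2 (limma adjusted p = 0.0526). Without any single library, the other falls among the 15 largest that are named here kept theirs, while in a fit of the 8 libraries alone Asb5 and Gjb2 lost theirs (limma adjusted p = 0.0632 and 0.116).

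Of the remaining falls, Arntl, the clock activator also called Bmal1, had 2.79, 2.54, 3.1 and 2.73 FPKM in OHT_4h, against 10.1, 8.98, 10.9 and 7.51 FPKM in OHT_0h. Its log2 fold change was -1.58 ± 0.25 (SE, limma adjusted p = 0.000688). Gvin1, an interferon-induced GTPase, averaged 4.81 ± 4.28 FPKM in OHT_4h and 17.7 ± 1.59 FPKM in OHT_0h, and Htr2a, a serotonin receptor, 3.23 ± 1.69 FPKM in OHT_4h and 11.3 ± 3.17 FPKM in OHT_0h. Asb5, a SOCS box protein, Tmem171 and Evi2a, both membrane proteins, and Klhdc8a, a kelch repeat protein, had log2 fold changes of -1.76, -1.71, -1.59 and -1.50. In the annotation of GRCm38, exons of Arntl, Asb5, Bhlhe41, Evi2a, Ifi30, Mxi1 and Rrp9 overlap those of another gene, and of the genes named further on so do those of Bmp4, Dusp1, Dusp5, Eef2k, Ereg, Fgf2, Fst, Gls2, Glul, Krt8, Lss, Nr1d1, Rpl12, Spred3, Spry1 and Taf1c. Whether counting used strand is not stated, so reads of the partners may share these values.

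For every list that follows, the counts stand against 1.89% of all genes called higher and 2.93% called lower. Genes for making ribosomes, a classic group of Myc targets, had mostly positive but small log2 fold changes, and few passed the test. Of 46 tested genes of nucleolar ribosome biogenesis, 1 rose and 0 fell, with 35 of 46 log2 fold changes above 0 and a median of 0.10, against -0.04 over all genes. A single call in a list of this size is near the 1.89% of all genes called higher and is no result about the list. The gene that rose was Rrp9, with 109, 89.7, 133 and 94.9 FPKM in OHT_4h and 82.3, 78.4, 82.9 and 75.3 FPKM in OHT_0h. Its log2 fold change was 0.40 (limma adjusted p = 0.0357), and the call was lost without OHT_4h replicates 1 or 3 or OHT_0h replicates 1, 2, 3 or 4 (up to 0.124), and without both libraries numbered 4 (0.0674). Without OHT_4h replicate 4, 2 genes of the list were called.

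Of 26 tested genes of RNA polymerase I and III, Taf1c, a subunit of the polymerase I factor SL1, rose, and the median was 0.13. Taf1c averaged 26.9 ± 7.72 FPKM in OHT_4h and 13.9 ± 3.23 FPKM in OHT_0h (limma adjusted p = 0.0167), and lost the call without OHT_4h replicates 1 or 3 or OHT_0h replicate 4 (up to 0.0759). A single call in 26 is again near the share of all genes called higher (1.89%) and is no result about the list, here or for the translation factors. Of 26 translation factors, Eef2k, the kinase that restrains elongation factor 2, rose to 34.8 ± 7.1 FPKM in OHT_4h, against 20.9 ± 0.449 FPKM in OHT_0h (limma adjusted p = 0.00585). This member restrains translation, unlike most of its list. None of 40 ribosomal proteins was called, and their median was -0.02, with the most abundant, Rpl12, at 129.7 ± 9.04 FPKM in OHT_4h and 133 ± 7.02 FPKM in OHT_0h.

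Among metabolic lists, the amino acid transporters had the highest median log2 fold change of the 41 gene lists, 0.25 over 12 tested genes. Slc1a5, a glutamine carrier, had 62.4, 58, 58.5 and 60.5 FPKM in OHT_4h, against 46.9, 46.8, 48.8 and 48.3 FPKM in OHT_0h, and Slc7a1, a carrier of arginine and lysine, averaged 40.1 ± 6.14 FPKM in OHT_4h and 27.5 ± 3.22 FPKM in OHT_0h. The groups did not overlap in either gene. Their limma adjusted p was 0.0357 for Slc1a5 and 0.0399 for Slc7a1. The call of Slc1a5 was lost without any 1 of the 8 libraries (up to 0.0988), while its log2 fold change stayed at 0.3 to 0.34. That of Slc7a1 was lost without OHT_4h replicates 2, 3 or 4 or OHT_0h replicates 1, 2 or 3 (up to 0.165). Its log2 fold change was 0.45 to 0.64 without 1 library at a time. The list's count of rises was 0 without OHT_4h replicates 2, 3 or 4 or OHT_0h replicates 1, 2 or 3, 1 without OHT_4h replicate 1 or OHT_0h replicate 4.

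Of 20 tested genes of cholesterol synthesis and uptake, Dhcr7 and Lss rose, both enzymes of the pathway. Dhcr7 averaged 36.3 ± 8.39 FPKM in OHT_4h and 20.6 ± 3.31 FPKM in OHT_0h, and Lss 44.3 ± 3.69 FPKM in OHT_4h and 31.5 ± 4.75 FPKM in OHT_0h. These calls had limma adjusted p of 0.0231 and 0.0479. They were lost without OHT_4h replicates 1, 2 or 3 or OHT_0h replicates 1 or 4 for Dhcr7 and without OHT_4h replicates 1, 2 or 3 or OHT_0h replicates 1, 2 or 4 for Lss (up to 0.153), and the count of rises was 0 without OHT_4h replicates 1, 2 or 3 or OHT_0h replicates 1 or 4, 1 without OHT_0h replicate 2. In nascent RNA the same list had a median log2 ratio of 0.45, against 0.03 over all genes tested and 0.15 in total RNA.

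The other metabolic genes that rose stood alone in their lists. Ppargc1b, a coactivator of mitochondrial genes, was the sole call among 27 genes of mitochondrial import and biogenesis, with 2.29, 2.23, 2.94 and 2.23 FPKM in OHT_4h and 1.45, 0.79, 0.87 and 0.74 FPKM in OHT_0h (limma adjusted p = 0.0109). Stc2, a secreted glycoprotein, rose among 16 genes of the response to amino acid shortage, to 14.6 ± 2.23 FPKM in OHT_4h, against 7.51 ± 2.62 FPKM in OHT_0h. In the same list Xbp1, a factor of the unfolded protein response, fell to 24.5 ± 4.41 FPKM in OHT_4h, against 35.5 ± 0.889 FPKM in OHT_0h, a call lost without OHT_4h replicates 1, 2 or 3 or OHT_0h replicates 1, 2 or 3 (limma adjusted p up to 0.0969). None was called among the tested genes of nucleotide and one-carbon synthesis (34), aminoacyl-tRNA synthetases (20), glycolysis (22), mitochondrial ribosomal proteins (30), oxidative phosphorylation (32), chaperones (26), nuclear transport (24), splicing (27), polyamine synthesis (11) or iron (11). Odc1, the rate-limiting enzyme of polyamine synthesis and a long-known Myc target, was at 93.4 ± 7.19 FPKM in OHT_4h and 93.1 ± 13.2 FPKM in OHT_0h.

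Few cell cycle genes were called at 4 h. Of 28 G1 cyclins, kinases and E2F factors, E2f2, an activator of S phase genes, rose to 15.4 ± 4.3 FPKM in OHT_4h, against 9.06 ± 0.467 FPKM in OHT_0h, and Rbl1, a relative of the retinoblastoma protein, fell to 13.6 ± 1.51 FPKM in OHT_4h, against 20.0 ± 3.24 FPKM in OHT_0h. Both calls were near the threshold (limma adjusted p = 0.0457 and 0.0478). That of E2f2 was lost without OHT_4h replicates 2 or 3 or OHT_0h replicates 1, 2, 3 or 4, and that of Rbl1 without OHT_4h replicates 1, 2 or 4 or OHT_0h replicates 2, 3 or 4. No gene was called among 30 of DNA replication, 28 of mitosis and 17 histone genes, where leaving out OHT_4h replicate 3 gave 1 call in mitosis. Of 20 tested p53 pathway genes, Fas and Btg2 fell, and of 12 genes of the Bcl2 family none was called, or 1 without OHT_4h replicate 4. Btg2, which restrains proliferation, averaged 6.22 ± 1.02 FPKM in OHT_4h and 12.5 ± 1.14 FPKM in OHT_0h. Fas, the death receptor, averaged 4.79 ± 1.25 FPKM in OHT_4h and 9.17 ± 1.69 FPKM in OHT_0h, and its call was lost without OHT_4h replicates 1, 2 or 3 or OHT_0h replicates 2, 3 or 4 (limma adjusted p up to 0.116).

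NF-kappaB is an inducible factor that switches on chemokine and survival genes together with its own inhibitors. The list of its targets and of chemokines had the largest share of calls. Of 14 tested members, 9 fell and 0 rose, against 2.93% of all genes called lower. All 14 log2 fold changes were below 0 (median -0.66). Tnfaip3, an inhibitor of the pathway, had 9.3, 11.9, 12.8 and 18.5 FPKM in OHT_4h, against 41.3, 34.9, 32.1 and 36 FPKM in OHT_0h, with a log2 fold change of -1.46 ± 0.22 (SE, limma adjusted p = 0.000369). Ccl7, a chemokine for monocytes, had 9.1, 11.7, 11.2 and 14.7 FPKM in OHT_4h, against 35.2, 27.6, 29.7 and 24.4 FPKM in OHT_0h. Lif, a cytokine, had 8.4, 11.2, 12.1 and 11.4 FPKM in OHT_4h, against 33.9, 31.1, 27.4 and 21.7 FPKM in OHT_0h.

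The other members that fell were Relb, a subunit of the factor, the inhibitor Nfkbia and its relative Nfkbiz, the chemokines Cxcl5 and Cxcl12, and Birc3, a survival protein. They had log2 fold changes of -0.69, -0.48, -0.62, -0.84, -1.04 and -0.82. The groups overlapped in Cxcl12 and Birc3. The count of falls was 2 without OHT_4h replicate 1, 3 without OHT_4h replicate 2 or OHT_0h replicate 2, 4 without OHT_0h replicates 1 or 4, 7 without both libraries numbered 4, and 11 without all libraries numbered 4 and OHT_16h replicate 2. Of single calls, Lif lost its own without OHT_4h replicate 1 or OHT_0h replicate 1 (limma adjusted p up to 0.0635). Those of Relb, Nfkbia, Nfkbiz, Cxcl5, Cxcl12 and Birc3 were each lost without 5 or 6 of the 8 libraries left out in turn (up to 0.163). The part of the macrophage genes of OHT_0h replicate 4 in this result was not tested. In nascent RNA the median log2 ratio of the list was -0.24.

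Interferon-stimulated genes had a median of -0.55 over 11 tested members, all below 0, and 1 was called. The summed level of all 21 members was 58.6 to 76.5 FPKM in OHT_4h and 92 to 193 FPKM in OHT_0h. The part of OHT_0h replicate 4, which held interferon genes, in the median was not tested. Ddx58, the RNA sensor RIG-I, had 1.42, 1.87, 2.33 and 2.54 FPKM in OHT_4h, against 6.94, 6.65, 5.3 and 5.17 FPKM in OHT_0h (limma adjusted p = 0.000758). Of the members below the filter, Rsad2, Ifit1, Mx1 and Usp18 were at 22.3, 16.1, 3.34 and 4.61 FPKM in OHT_0h replicate 4 and at no more than 1.61 FPKM in the other 7 libraries.

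Immediate early genes are switched on within minutes of growth factor stimulation. Of 22 tested, 5 fell and 0 rose, against 2.93% and 1.89% of all genes tested, with 20 of 22 log2 fold changes below 0 and a median of -0.40. Maff, a small Maf factor, had 10.4, 12.9, 16.2 and 20.4 FPKM in OHT_4h, against 30.5, 26.5, 33.6 and 31.6 FPKM in OHT_0h. Egr2, a zinc finger factor, averaged 1.31 ± 0.998 FPKM in OHT_4h and 3.5 ± 0.89 FPKM in OHT_0h, and its call was lost without OHT_4h replicates 1 or 2 (limma adjusted p up to 0.0669). Btg2, Egr3 and Ier3 were the other members that fell, and the calls were lost without OHT_4h replicates 1 or 2 or OHT_0h replicates 2 or 4 for Egr3 and without OHT_4h replicates 1, 2 or 4 or OHT_0h replicates 1, 2 or 3 for Ier3 (up to 0.119). The count was 2 without OHT_4h replicates 1 or 2, 3 without OHT_0h replicate 2, and 14 without all libraries numbered 4 and OHT_16h replicate 2. The nascent median was -0.01, close to that of all genes.

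The MAP kinase pathway is held in check by phosphatases and adaptors that it induces itself. Of 15 tested members of this feedback, 5 fell and 2 rose, against 2.93% and 1.89% of all genes tested. Next to Dusp2, Spry1, an inhibitor of growth factor receptor signalling, rose to 16, 14.4, 22.4 and 25.6 FPKM in OHT_4h, against 7.56, 6.7, 7.08 and 9.23 FPKM in OHT_0h, with a log2 fold change of 1.27 ± 0.19 (SE, limma adjusted p = 0.000326). Dusp1, another MAP kinase phosphatase, fell to 21.9, 23.9, 27.4 and 22.4 FPKM in OHT_4h, against 52.6, 44.8, 54.5 and 42.1 FPKM in OHT_0h (limma adjusted p = 0.00156). Within the same family of phosphatases, Dusp2 was therefore higher while Dusp1, Dusp5 (-1.12) and Dusp6 (-0.86, log2 fold changes) were lower. Spred3 and Errfi1, inhibitors of Ras and of the EGF receptor, also fell (-0.87 and -0.89), and the call of Spred3 was lost without OHT_4h replicates 1, 2 or 4 or OHT_0h replicates 1, 2, 3 or 4 (limma adjusted p up to 0.129).

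Of 20 tested receptor tyrosine kinases and growth factors, 4 fell and 0 rose, against 2.93% and 1.89% of all genes tested, with a median of -0.47. Ereg, the EGF receptor ligand epiregulin, averaged 21.6 ± 6.75 FPKM in OHT_4h and 39.6 ± 7.74 FPKM in OHT_0h, and Fgf2, a fibroblast growth factor, 2.83 ± 0.784 FPKM in OHT_4h and 5.24 ± 1.25 FPKM in OHT_0h. Pdgfb, a ligand of the PDGF receptors, had a log2 fold change of -0.83. The count was 0 without OHT_4h replicate 1, 1 without OHT_4h replicate 2 or OHT_0h replicate 2, 2 without OHT_0h replicates 1 or 3, 9 without OHT_4h replicate 4. The call of Ereg was lost without OHT_4h replicate 1 (limma adjusted p = 0.0548), that of Fgf2 without OHT_4h replicates 1, 2 or 3 or OHT_0h replicates 2 or 4 (up to 0.105), and that of Pdgfb without OHT_4h replicates 1 or 2 or OHT_0h replicates 1, 2 or 3 (up to 0.121).

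Genes of cell shape, adhesion and matrix had mostly negative log2 fold changes and few calls. Of 23 SRF and YAP targets, the genes that actin tension turns on, 4 fell and 0 rose, against 2.93% and 1.89% of all genes, with 22 log2 fold changes below 0 and a median of -0.27. Besides Ankrd1 these were Ctgf, a matrix-associated growth factor, at 36.2, 38.6, 50.9 and 65 FPKM in OHT_4h and 78, 67.5, 72.8 and 80.7 FPKM in OHT_0h, Myl9, a myosin light chain, at 67, 55.8, 61.3 and 79 FPKM in OHT_4h and 103, 82.9, 115 and 90.6 FPKM in OHT_0h, and Actg2, a smooth muscle actin. The count was 1 without OHT_4h replicates 1 or 2, 2 without OHT_0h replicate 4. Ctgf lost its call without OHT_4h replicates 1 or 2 (limma adjusted p up to 0.0669), Actg2 without OHT_4h replicates 1 or 2 or OHT_0h replicate 4 (up to 0.0674), and Myl9 without OHT_4h replicates 1, 2 or 3 or OHT_0h replicates 1, 3 or 4 (up to 0.129).

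Of 16 integrins and adhesion genes, Itga2, Itga6 and Itgb3 fell, with a list median of -0.38. Itga2, the collagen-binding integrin subunit, had 0.61, 0.89, 1.08 and 1.66 FPKM in OHT_4h, against 3.19, 3.64, 3.2 and 5.8 FPKM in OHT_0h (limma adjusted p = 0.000534), and kept its call without any single library. Itga6 and Itgb3 averaged 6 ± 3.28 and 5.6 ± 1.94 FPKM in OHT_4h, and 10.9 ± 2.37 and 11.2 ± 1.18 FPKM in OHT_0h. The calls were lost without OHT_4h replicates 1, 2 or 3 or OHT_0h replicates 1, 3 or 4 for Itga6 and without OHT_4h replicates 1, 2 or 3 or OHT_0h replicates 1, 2, 3 or 4 for Itgb3 (limma adjusted p up to 0.184). The count of falls was 1 without OHT_4h replicates 1, 2 or 3 or OHT_0h replicates 3 or 4.

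Among 26 collagen and matrix genes, Dcn, the proteoglycan decorin, and Col8a1 fell, and 24 log2 fold changes were below 0 (median -0.23). Dcn had 0.93, 0.82, 1.3 and 1.21 FPKM in OHT_4h, against 5.87, 2.37, 1.73 and 2.46 FPKM in OHT_0h, where replicate 1 was highest, and lost its call without OHT_4h replicates 1 or 2 or OHT_0h replicate 1 (limma adjusted p up to 0.0665). Col8a1 averaged 12.2 ± 4.28 FPKM in OHT_4h and 19.6 ± 1.91 FPKM in OHT_0h with overlapping groups, and lost its call without OHT_4h replicates 1, 2 or 3 or OHT_0h replicates 1, 3 or 4 (up to 0.142). The count of falls in the list was 0 without OHT_4h replicates 1 or 2 or OHT_0h replicate 1, 1 without OHT_4h replicate 3 or OHT_0h replicates 3 or 4.

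Of 28 genes of TGF-beta and BMP signalling, Fst, Inhba, Smad3 and Bmp4 fell and 0 rose (median -0.16). Fst, follistatin, which blocks activin, averaged 7.23 ± 2.97 FPKM in OHT_4h and 13.3 ± 1.48 FPKM in OHT_0h, and Inhba, a subunit of activin, 36 ± 4 FPKM in OHT_4h and 59.6 ± 13.2 FPKM in OHT_0h. Smad3, which carries the TGF-beta signal to the nucleus, averaged 14.3 ± 1.8 FPKM in OHT_4h and 21.7 ± 0.495 FPKM in OHT_0h. A ligand, its blocker and a mediator were thus all lower. The 4 calls lay close to the threshold, at a limma adjusted p of 0.0341, 0.0349, 0.035 and 0.0474, and the count was 0 without OHT_4h replicates 1, 2 or 3 or OHT_0h replicates 2 or 4, 1 without OHT_0h replicates 1 or 3. Bmp4 lost its call without any 1 of the 8 libraries, and Fst and Smad3 theirs without any 1 library other than OHT_4h replicate 4. Inhba lost its own without OHT_4h replicates 1, 2 or 3 or OHT_0h replicates 2 or 4. Without 1 library at a time, log2 fold changes were -0.71 to -0.59 (Bmp4), -1.14 to -0.78 (Fst), -0.67 to -0.54 (Smad3) and -0.79 to -0.57 (Inhba).

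The circadian clock runs on an activator pair that includes Arntl and on repressors that it induces. Of 15 tested clock genes, Bhlhe41 and Nr1d1 rose and Arntl fell. Nr1d1, the repressor Rev-erb-alpha, which acts on Arntl, had 30.7, 29.5, 36.2 and 25.5 FPKM in OHT_4h, against 18.3, 19.8, 15.1 and 10.5 FPKM in OHT_0h (limma adjusted p = 0.0423). Its call was lost without OHT_4h replicates 1, 2 or 3 or OHT_0h replicates 1, 3 or 4 (up to 0.134), which left 1 rise in the list each time, and without both libraries numbered 4 (0.112). In nascent RNA the log2 ratios were 1.48 for Bhlhe41, 1.15 for Nr1d1 and -1.74 for Arntl. Without OHT_4h replicate 4, 2 clock genes were called lower.

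Of 7 tested Notch genes, the target Hey1 rose to 7.32 ± 1.5 FPKM in OHT_4h, against 4.03 ± 0.649 FPKM in OHT_0h, and the target Hes1 fell to 11.6 ± 2.21 FPKM in OHT_4h, against 19.8 ± 0.786 FPKM in OHT_0h. Their limma adjusted p was 0.0452 and 0.0333. The call of Hey1 was lost without OHT_4h replicates 1, 2 or 3 or OHT_0h replicates 1, 2, 3 or 4, and that of Hes1 without OHT_4h replicates 1 or 2 or OHT_0h replicates 1, 2, 3 or 4. Of 24 histone and DNA modifying enzymes, Ezh1, a histone methyltransferase of Polycomb, rose. Ezh1 had 13.3, 13.8, 14.3 and 11.9 FPKM in OHT_4h, against 5.91, 6.48, 5.94 and 5.11 FPKM in OHT_0h, and its log2 fold change was 1.12 ± 0.14 (SE, limma adjusted p = 6.4e-05). No gene was called among those of the Wnt pathway (12, a list that does not hold Fzd9 and Fzd4), where 1 was without OHT_4h replicate 4, or of lysosome and autophagy (24), telomerase and genome maintenance (17) and small nucleolar RNA hosts (7). Of the marker lists, Tubb3, a tubulin of neurons that other cells also express, was the only gene called, at 58.7 ± 6.75 FPKM in OHT_4h and 34 ± 3.65 FPKM in OHT_0h.

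Other settings also ended calls, counted here over all 96 called genes that are named. Of these, 52 kept their call without any single library, among them 26 of the 29 named largest rises and falls. Without both libraries numbered 4, the calls of Fblim1, Tgfb1i1, Rrp9, Slc1a5, Slc7a1, Lss, E2f2, Rbl1, Nr1d1, Inhba, Bmp4, Hes1, Hey1, Nfkbia, Nfkbiz, Relb and Spred3 were lost, with limma adjusted p of 0.0588 to 0.189. In a fit of the 8 libraries alone, those of Asb5, Gjb2, Slc1a5, Egr2, Actg2 and Itga6 were lost (0.0514 to 0.116). With no filter on level, 23 were lost (0.0522 to 0.0855), namely Rrp9, Myl9, Slc7a1, Lss, E2f2, Rbl1, Fas, Nr1d1, Fst, Inhba, Smad3, Bmp4, Col8a1, Itga6, Itgb3, Hes1, Hey1, Cdc42ep5, Cxcl12, Ier3, Mgst2, Nfkbia and Spred3. Without trend and robust settings, those of Rrp9, Myl9, Slc1a5, Slc7a1, Lss, Nr1d1, Inhba, Itgb3, Bmp4 and Nfkbia were lost (0.0521 to 0.0849).

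**Figure D2:**
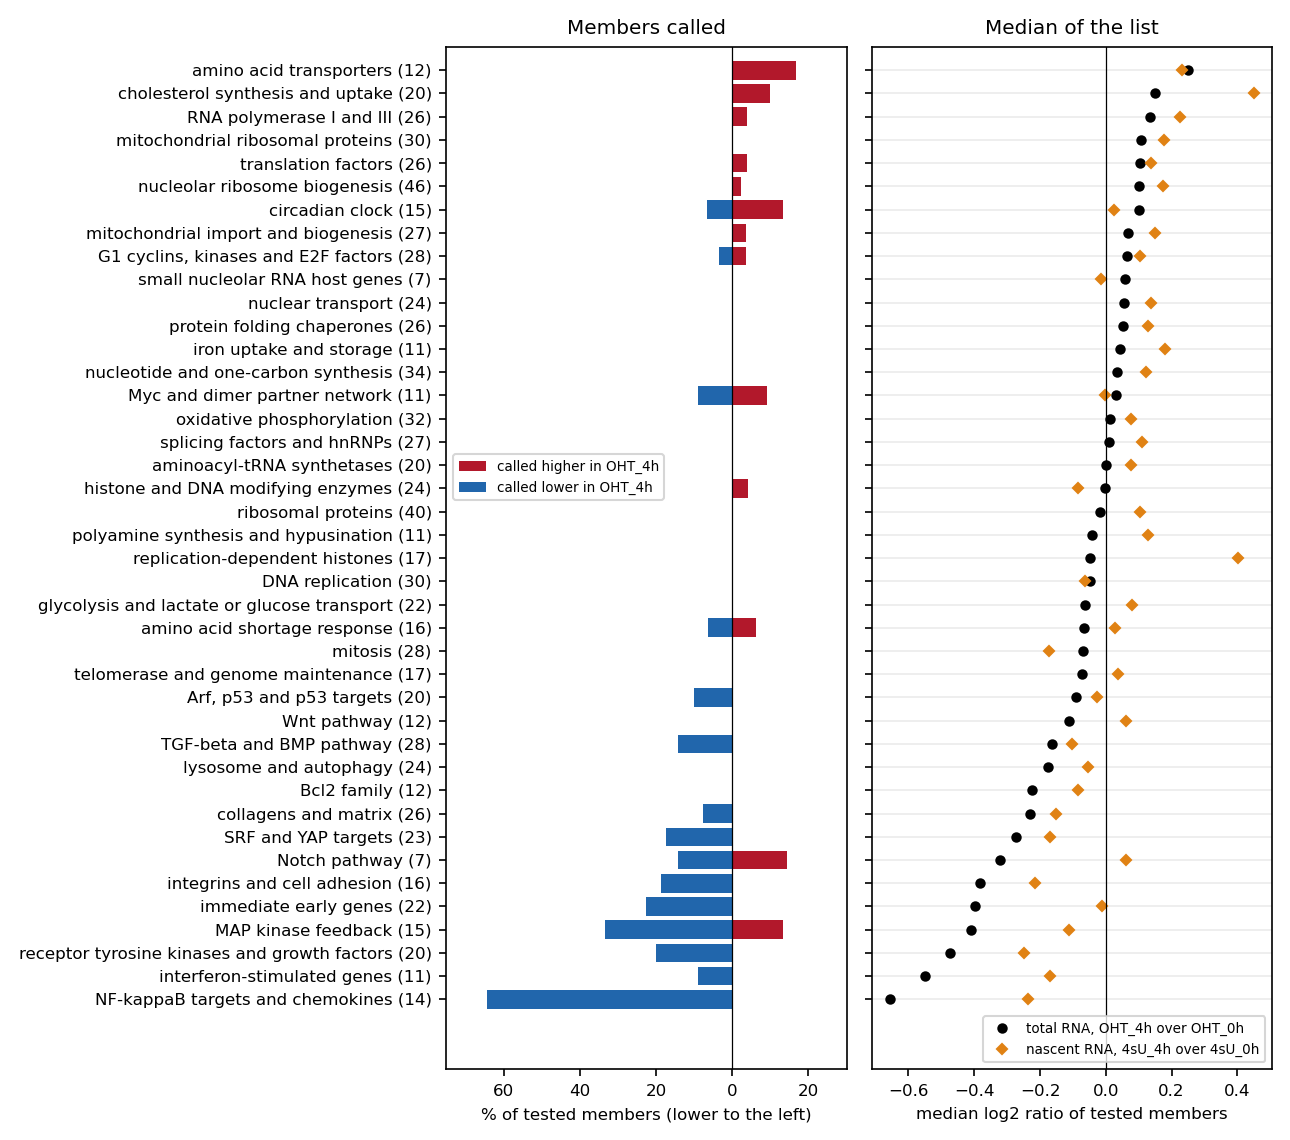
For each of the 41 gene lists (tested members in parentheses), the percentage of tested members called higher (red, right) or lower (blue, left) in OHT_4h (left panel), and the median log2 ratio of total RNA (OHT_4h over OHT_0h, circles) and nascent RNA (4sU_4h over 4sU_0h, diamonds; right panel). Amino acid transporters have the highest total RNA median, 0.25, and NF-kappaB targets and chemokines the lowest, -0.66, with 9 of 14 members called lower.

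The size of the changes depended on the level of a gene. The highest value in any of the 8 libraries was 145 to 201 FPKM and the 99th percentile 88.2 to 97.6 FPKM, so abundant genes lay close together. Among genes with a mean of 0 to 5 FPKM, 6.96% were called, against 6.04% at 5 to 20, 3.64% at 20 to 50, 2% at 50 to 80 and 0.462% of the 433 genes from 80 FPKM upward. The 95th percentile of the absolute log2 fold change was 0.94 in the lowest and 0.21 in the highest of these classes. Of the 46 nucleolar genes 34 had a mean of 50 FPKM or more, as did 34 of the 40 ribosomal proteins, so these lists lie where few genes of any kind were called. What sets the upper end of the values is not stated, and its part in these results was not tested.

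**Figure D3:**
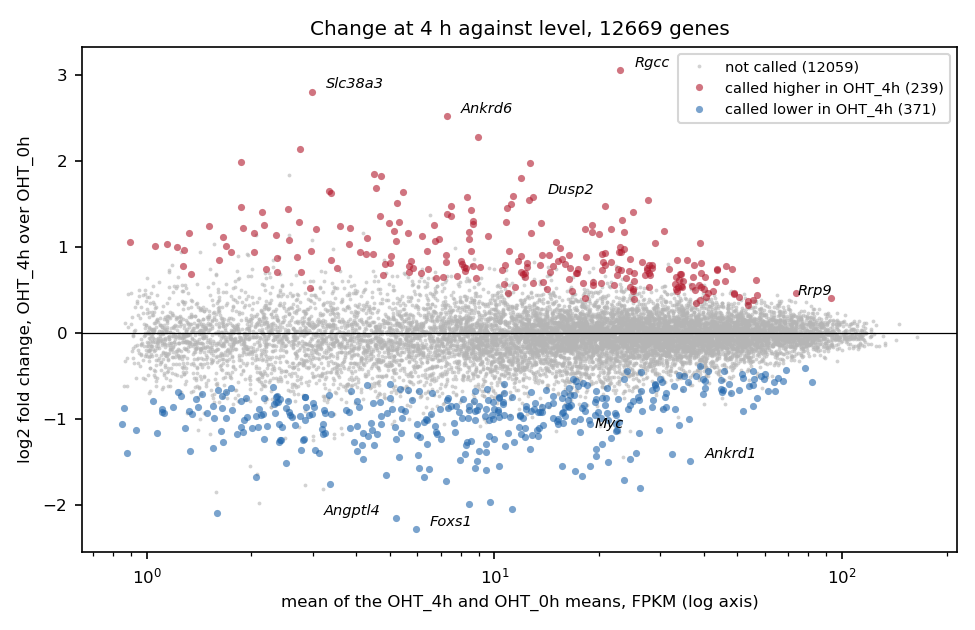
Log2 fold change of OHT_4h over OHT_0h against the mean level in FPKM (log axis) for the 12669 genes tested, with genes called higher in red (239), called lower in blue (371) and not called in grey. The cloud narrows toward high levels, and few calls lie above 80 FPKM.

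Nascent RNA, labelled for 10 min, was measured in libraries that the comparison of total RNA does not use. With 1 library per time it has no replicate check. Of the 239 genes called higher in total RNA, 237 had a nascent log2 ratio above 0, with a median of 0.88, against 0.03 over all genes tested. Of the 371 called lower, 25 were above 0, with a median of -0.46. A nascent log2 ratio of at least 0.5 in size was reached upward by 857 (6.76%) and downward by 623 (4.92%) of all genes tested. It was reached upward by 202 of the rises (84.5%) and downward by 169 of the falls (45.6%). Across the 12669 genes, Pearson's r between the 2 log2 ratios was 0.65, a description over genes that share libraries and are no independent replicates.

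Single genes followed the total RNA to different degrees. Rgcc had 8.79 FPKM in nascent RNA at 4 h and 0.59 FPKM at 0 h, a log2 ratio of 3.09. Fzd9 had 2.00 and Dusp2 1.88, both above their log2 fold change in total RNA. Nrtn, in contrast, had 0.45 in nascent RNA and 1.85 in total RNA, with nascent levels of 1.0 FPKM at 4 h and 0.6 FPKM at 0 h. Among the falls, Arntl (-1.74) and Tgfb1i1 (-1.53) were about as far down in nascent as in total RNA, whereas Foxs1 had -0.62 in nascent and -2.28 in total RNA. Nascent Foxs1 was at 0.75 FPKM at 4 h and 1.42 FPKM at 0 h. At levels as low as those of Nrtn and Foxs1, the added 0.5 FPKM pulls the nascent ratio toward 0. Its part in the gap to total RNA was not tested. Myc had 25.2 FPKM in nascent RNA at 4 h and 33 FPKM at 0 h, a log2 ratio of -0.38, against -1.15 in total RNA.

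Of the 25 falls with a nascent log2 ratio above 0, 2 reached 0.5: Fas (0.51) and Cdc42ep5 (0.72), which binds the GTPase Cdc42. Of the rises, Mgst2 (-0.17), a microsomal glutathione transferase, and Olfr267 (-0.02), an olfactory receptor, were not above 0, and neither reached -0.5. These 4 genes are named because the counts were small, after their values were seen, and all 4 were low in nascent RNA, at no more than 3.05 FPKM. Ctgf had -0.05 in nascent RNA and -0.68 in total RNA.

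**Figure D4:**
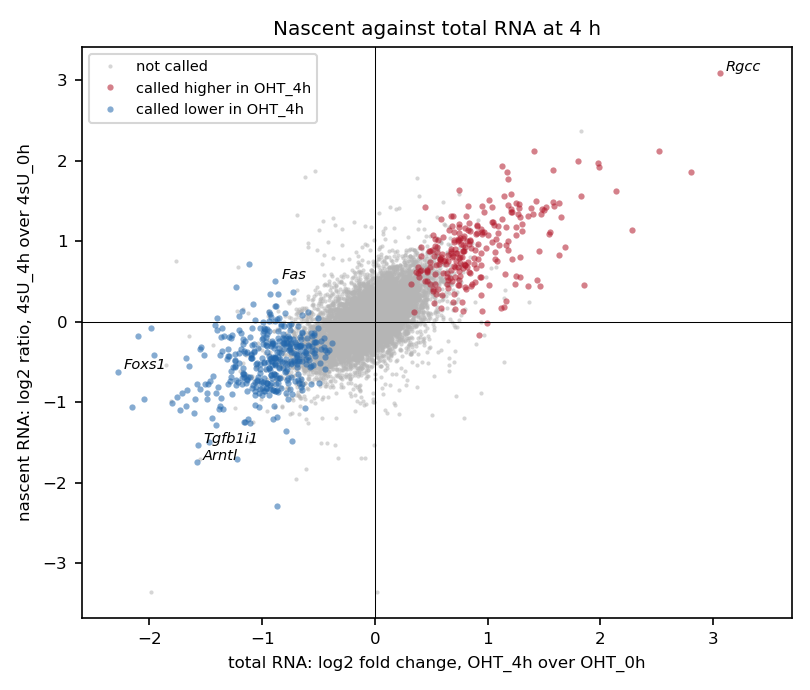
Nascent RNA log2 ratio (4sU_4h over 4sU_0h, 1 library each) against the total RNA log2 fold change (OHT_4h over OHT_0h, n = 4 each) for the genes tested, with calls in total RNA in colour. Of the genes called higher, 237 of 239 lie above 0 on the vertical axis, and of those called lower, 25 of 371.

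Later times were compared with the levels reached at 4 h. Between OHT_8h and OHT_4h, 0 genes were called (0% of those tested) with limma, and 194 had an unadjusted p under 0.05 (1.53%). Between OHT_16h and OHT_4h, 0 were called and 215 had an unadjusted p under 0.05 (1.7%). Both percentages are below the share of 0.05 expected if no gene differed, and the cause was not tested. The 16 libraries that give the spread differed in scale. By median ratio, the scale factor was 0.862 in OHT_8h replicate 4 and 0.798 and 0.811 in OHT_16h replicates 2 and 4. It was 1.15 in OHT_4h replicate 3. With median ratio scaling, 0 genes were again called at either time. These zeros do not show that levels were equal. Without OHT_4h replicate 4, 4 genes differed between OHT_8h and OHT_4h. Without all libraries numbered 4 and OHT_16h replicate 2 the counts were 504 at 8 h and 63 at 16 h. With array weights they were 828 at 8 h and 0 at 16 h. Rgcc averaged 4.53 ± 0.337, 41.4 ± 1.14, 40.3 ± 9.66 and 44.9 ± 5.01 FPKM at 0, 4, 8 and 16 h, and Dusp2 6.26 ± 0.399, 19.6 ± 1.19, 20.4 ± 1.01 and 20.9 ± 1.06 FPKM. In both, the ranges at 4, 8 and 16 h overlapped and lay above that at 0 h. Cited1 averaged 2.4 ± 0.491, 15.5 ± 8.24, 8.46 ± 2.64 and 11.2 ± 3.38 FPKM, highest at 4 h but with wide spread there.

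Among the falls, Ankrd1 averaged 53.5 ± 6.77, 19.5 ± 7.28, 26.4 ± 4.46 and 17.6 ± 4.38 FPKM at 0, 4, 8 and 16 h, and Tnfaip3 36.1 ± 3.86, 13.1 ± 3.87, 17.7 ± 2.98 and 11.7 ± 4.08 FPKM. Arntl averaged 9.38 ± 1.48, 2.79 ± 0.232, 3.09 ± 1.13 and 2.19 ± 0.821 FPKM, and Myc 24.4 ± 3.98, 10.8 ± 2.84, 12.5 ± 2.2 and 9.78 ± 1.41 FPKM. For each of these 4 genes, all means from 4 h on were below that at 0 h. The comparisons of 8 and 16 h with 0 h use the same 0 h libraries as that at 4 h and are not independent of it.

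**Figure D5:**
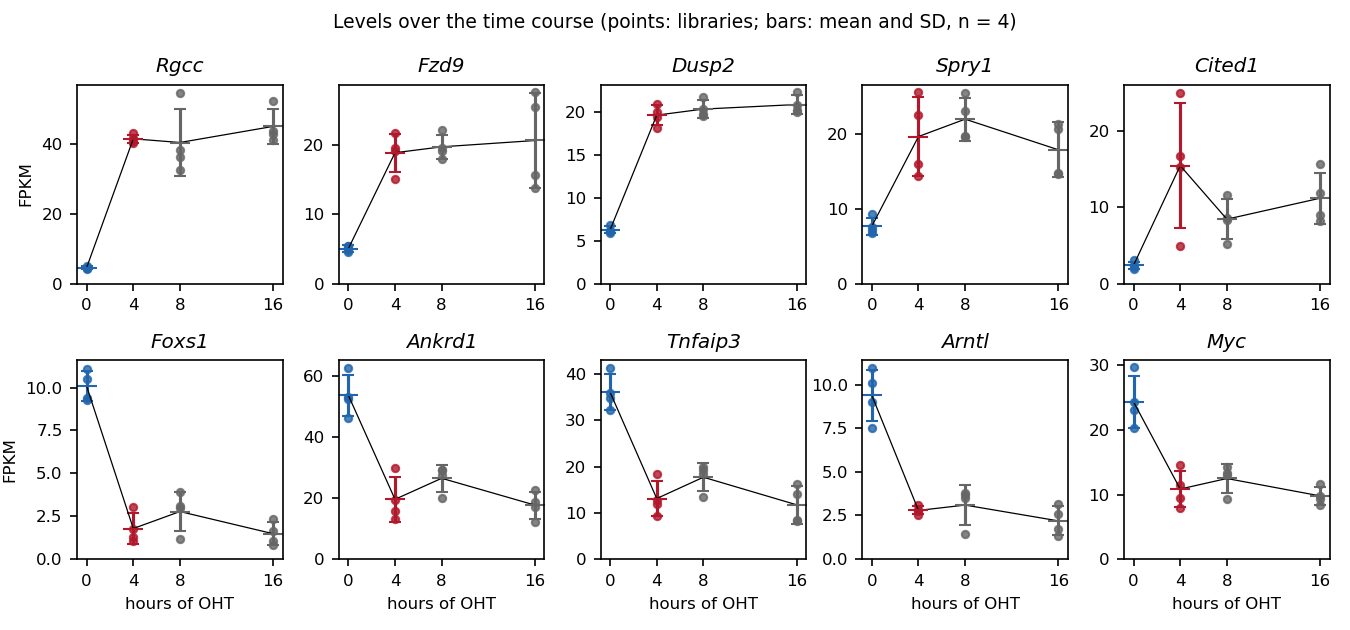
FPKM of 10 genes after 0, 4, 8 and 16 h of 4-hydroxytamoxifen (points, libraries; bars, mean and SD, n = 4 at each time). In the upper row, levels at 4 h stand above 0 h in every library, and in the lower row below.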

How the data were processed

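RNA was purified after removal of ribosomal RNA, per the labels' protocols. The authors deposited 1 FPKM value per gene and library, per the file headers. Per the submitters' processing notes, they used HTSeq 0.5.3p9, SAMtools, TopHat and TopHat2 2.0.8 with build mm9; the annotation, the read filters and the use of strand are not given in the sources used here. The denominator was estimated from the spacing of low values. Whole reads could not be recovered, so no count test was run.

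Values were taken as log2(FPKM + 0.5). The 16 total RNA fibroblast libraries were fitted together with limma 3.58.1 in R 4.3.3 (eBayes with trend and robust, two-sided). P-values were adjusted by Benjamini-Hochberg over all genes tested. Fold changes are limma coefficients on that scale, which understates changes of low genes. Tables and figures used Python 3.11.15. The fit was run on simulated data with independent normal noise for each gene. These data held no shifts of whole libraries, so that check does not cover such shifts.

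The members, the 41 gene lists, the 9 marker lists and the tests were chosen with earlier results of these data known. The text names Myc and Esr1, the 15 largest rises and falls and the 5 largest by FPKM difference among called genes without overlap, and up to 3 called members per list, or the most abundant where none was called. The 15 had a mean of at least 5 FPKM in the higher group. Predicted and small RNA genes were left out of these rankings. Other called members of a list are named for completeness of its count, after their values were seen. Some genes that these rules name are not reported here. Nascent RNA has 1 library per time and is given with no test.

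The fit was repeated with array weights, with quantile or median ratio scaling, with 0.1 or 1 as pseudocount, without a filter or with 5 FPKM as the minimum, without trend and robust, with the 8 libraries alone, with a replicate block and with libraries left out. Those added after seeing the data were genes under 50 FPKM, and leaving out all libraries numbered 4 with OHT_16h replicate 2.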

Additional observations from a re-analysis of the deposited data

Results flagged for a closer look

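In 19 of 250 groups of 4 libraries, over the named genes, 1 library stood far from the other 3, where chance alone flags about 1 in 20 groups. Libraries numbered 4 made up 14 of the 19. In OHT_4h replicate 4, Adora2b was at 11.3 FPKM (others at most 6.26), Gvin1 at 11.2 FPKM (at most 2.98), Asb5 at 3.23 FPKM (at most 0.917), Htr2a at 5.73 FPKM (at most 2.74) Cdc42ep5 at 3.29 FPKM (at most 1.62), Cxcl12 at 9.21 FPKM (at most 4.12), Egr3 at 1.06 FPKM (at most 0.533) and Xbp1 at 31.1 FPKM (at most 22.9), while Krt8 was at 0.692 FPKM (others at least 0.948). OHT_0h replicate 4 was high for Htr2a (16.1 FPKM, others at most 10.2), Fhdc1 (29.9 FPKM, at most 21.7), Mrpl20 (95.9 FPKM, at most 81.4), Ereg (51.1 FPKM, at most 37) and Stc2 (11.4 FPKM, at most 6.75). The other libraries far from their group were OHT_4h replicate 1 for Myzap (3.44 FPKM, others at least 6.01), OHT_4h replicate 3 for Ppargc1b (2.94 FPKM, at most 2.29) and Atp5b (123 FPKM, at most 101), and OHT_0h replicate 2 for Hist1h1b (107 FPKM, others at least 111) and Col8a1 (16.7 FPKM, at least 20.4).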

How the results depend on the processing

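No named gene reversed its direction under any alternative run, and 50 of the 96 named calls held under every one. Calls were lost by 23 genes with no filter on level, 17 without both libraries numbered 4, 10 without trend and robust, 6 with the 8 libraries alone, 3 with 0.1 as pseudocount (Itgb3, Bmp4 and Spred3), 2 with a filter of 5 FPKM (Rbl1 and Hey1), 2 without all libraries numbered 4 and OHT_16h replicate 2 (Slc1a5 and Dcn), and 1 each with array weights (Rrp9), median ratio scaling (Slc1a5) and quantile normalization (Itga6). The counts moved more, and the cause was not tested except where fewer libraries or genes entered. Rises (239) numbered 802 with array weights, 647 with median ratio scaling, 845 with quantile normalization and 722 without all libraries numbered 4 and OHT_16h replicate 2. Falls (371) numbered 1757, 807, 900 and 1393 under the same settings, and 794 with the 8 libraries alone. Rises of at least 2-fold (79) numbered 49 with a filter of 5 FPKM, and falls of at least 2-fold (139) numbered 240 with array weights and 225 without all libraries numbered 4 and OHT_16h replicate 2. Leaving out 1 library gave 137 to 271 rises, 115 to 479 falls, 58 to 100 rises and 73 to 198 falls of at least 2-fold, 0 to 4 genes between OHT_8h and OHT_4h, and 0 between OHT_16h and OHT_4h. The 8 h against 4 h contrast had 828 calls with array weights, 504 without all libraries numbered 4 and OHT_16h replicate 2, and 4 without both numbered 4, and the 16 h contrast 63 and 1 under the last 2 of these. Samples with the same number deviated together with correlations of 0.21, 0.16, 0.02 and 0.43, and those with different numbers with -0.38 to 0.24. The labels give no meaning to the numbers and 1 of the 4 correlations was under 0.1, so the numbers were not taken as pairs. OHT_4h replicate 1 had 0.23 with OHT_0h replicate 3 and 0.21 with its own number, and OHT_4h replicate 3 had 0.24 with OHT_0h replicate 1. The highest correlation, 0.43, was that of the libraries numbered 4. Over log values, OHT_4h replicate 4 had r = 0.9747 with OHT_0h replicate 4 and 0.9681 to 0.9744 with the other OHT_4h libraries. A replicate block gave 398 rises and 707 falls, or 670 and 1373 in the 8 libraries, and 1 call between 8 h and 4 h. Few abundant genes were called, and the part of depth and of the narrow upper range of the values in this was not tested.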

Other observations

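Families outside the fixed lists were looked at after the values were seen, so their counts are descriptions. Of 15 tested genes of glutamine transport and use, 4 rose and 0 fell, against 1.89% and 2.93% of all genes tested. Gls2, a glutaminase, averaged 19.1 ± 6.79 FPKM in OHT_4h and 5.96 ± 1.43 FPKM in OHT_0h, and Glul, glutamine synthetase, 60.5 ± 6.55 FPKM in OHT_4h and 36 ± 4.85 FPKM in OHT_0h (limma adjusted p = 0.00171 and 0.00159). The others were Slc38a3 and Slc1a5. The call of Slc1a5 was lost without any 1 of the 8 libraries (limma adjusted p up to 0.0988), with log2 fold changes of 0.3 to 0.34. An enzyme that makes glutamine and one that breaks it down were thus both higher. Asns, which uses glutamine to make asparagine, was at 96.1 ± 8.62 FPKM in OHT_4h and 91.4 ± 8.04 FPKM in OHT_0h and was not called.

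Of 9 tested Frizzled receptors, Fzd9 and Fzd4 rose, against 1.89% of all genes tested. Both were already among the 15 largest rises, so the count is no result about the family. The family's median log2 fold change was -0.04, with 4 members above 0 and 5 below. The 7 others were not called, among them Fzd7 (36.8 ± 3.75 FPKM in OHT_4h and 29.7 ± 4.67 FPKM in OHT_0h), whose nascent log2 ratio was 0.91.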
